A study of Homo sapiens with 8 samples.

Results

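Keratins, cadherins, claudins, collagens, laminins and integrins, the gene families that build the cytoskeleton, junctions and matrix contacts of adherent cells, were followed in lymphoma cells given an EZH2 degrader or its comparators. Members were taken by gene symbol alone, as every row of the deposited tables named as a numbered keratin, cadherin, claudin, collagen chain or laminin chain, or whose symbol starts as an integrin alpha or beta chain does. This gave 100 of 19709 genes, of which 96 were in the MS8815 table, 81 in the EPZ-6438 table and 84 in the MS8815N table, with 75 in all 3. They were 31 collagens, 12 claudins, 11 laminins, 10 keratins, 9 cadherins and 27 integrin symbols. The integrin symbols comprised 7 leukocyte chains (ITGAL, ITGAM, ITGAX, ITGAE, ITGA4, ITGB2 and ITGB7), 15 other chains, and 5 genes that match by symbol but encode no integrin chain. GENCODE 29 lists 188 protein-coding genes of these families, and 52.7% of them had a row, from 18.2% of keratins to 91.7% of laminins.

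Transcripts were measured by RNA sequencing in SUDHL6, an established human cell line from a diffuse large B-cell lymphoma of germinal-centre type that grows in suspension. MS8815 is a PROTAC, a molecule that brings a ubiquitin ligase to its target, here the histone H3K27 methyltransferase EZH2, so that the target is degraded. EPZ-6438 (tazemetostat) blocks the enzymatic activity of EZH2, MS8815N is the analog of MS8815 that lacks PROTAC activity, and DMSO is the vehicle. The compounds were given at 2.5 µM for 18 h, with 2 libraries for each compound and for DMSO. The labels call these duplicates without saying whether they were separate cultures, so p-values cover only how far these libraries differ among themselves, possibly for technical reasons.

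Keratins pair as type I and type II chains into the intermediate filaments of epithelial cells, and desmosomes anchor those filaments. Cadherins hold adherens junctions together, claudins seal tight junctions, and laminins and type IV collagens form the basement membrane that integrins bind. Integrins act as pairs of an alpha and a beta chain. Lymphocytes carry their own set, above all LFA-1 (ITGAL with ITGB2) and the gut-homing receptor made of ITGA4 and ITGB7, while most keratins, claudins and laminins are not part of a B cell's programme.

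The 2 MS8815 libraries stood apart before any member was considered. Their estimated depth was 13.0 and 14.6 M reads, against 26.0 to 34.1 M reads in the 6 other libraries, and their median difference between replicates was 0.149 on the log2 scale, against 0.0826 to 0.0878. All 12 genes of a B-cell identity list had rows in every table, which fits the labelled cell type, but their summed normalised count was 73280 and 72090 in the MS8815 libraries, against 142400 and 143700 with DMSO. With MS8815, 11 of those 12 genes were called lower than with DMSO (median log2 fold change -0.96). Markers of some other cells were higher in the same libraries, where 24.5% of all genes were called higher than with DMSO and 22.4% lower. Of 15 epithelial markers other than keratins, cadherins and claudins, 11 were tested and 10 were called higher (median 3.04), with sums of 1997 and 2355 with MS8815 and 146.7 to 222.5 in the other libraries. GRHL2, OVOL1, RAB25 and PRSS8 had no row there. Of 14 fibroblast markers other than collagens, 9 were tested and 8 were called higher (median 3.52). DCN was not, and PDGFRA, LUM, THY1, FAP and PRRX1 had no row. Of the 9 tested, 6 had a row in every table, and the others can owe theirs to being high with MS8815. Of 10 endothelial markers (the members CLDN5 and CDH5 by symbol among them) 4 were tested and 2 rose. Of 11 myeloid markers (ITGAM among them) 6 were tested and 2 rose. Counts this small cannot be told from the 24.5% of all genes called higher. Of 10 T and NK cell markers 4 were tested and none rose, and none of 8 hepatocyte markers had a row. The part of RNA from other cells, of depth, of carry-over between libraries and of the library kit in the member results was not tested; the labels name 2 kits without saying which served which library. In bulk RNA, fewer cells of a type and less RNA per cell cannot be told apart.

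The following promoter windows are those, from a longer chosen list of members, that overlap no exon. They include keratins of all 3 outcomes with MS8815 (KRT8 rose, KRT10 was not called, KRT9 fell) and 1 integrin that rose (ITGB5). Each is the 150 bases before the first RefSeq start listed for the gene on GRCh38.p14, and overlaps no exon of GENCODE 29. Sequences are read 5′ to 3′ on the gene's strand (minus for all), and other starts of a gene are not shown. The KRT8 window lies inside the gene's GENCODE span, since longer transcripts start upstream, and it need not precede the start of the main KRT8 transcript. They lie at chr12:52926470-52926619 for KRT8, chr17:40822615-40822764 for KRT10, chr17:41572060-41572209 for KRT9 and chr3:124901419-124901568 for ITGB5. Capitals mark an exact match to a short motif, searched on both strands. The GC box of ubiquitous promoters was searched as GGGCGG. The TATA box, which positions the start of transcription, was searched as TATAAA. The core bound by ETS factors was searched as CCGGAAGT.
KRT8: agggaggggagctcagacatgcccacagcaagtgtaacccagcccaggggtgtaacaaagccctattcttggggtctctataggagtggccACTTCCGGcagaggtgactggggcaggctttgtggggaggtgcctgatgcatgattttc
KRT10: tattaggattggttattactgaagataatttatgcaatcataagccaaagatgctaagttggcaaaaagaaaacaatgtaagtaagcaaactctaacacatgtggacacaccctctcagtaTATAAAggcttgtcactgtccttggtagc
KRT9: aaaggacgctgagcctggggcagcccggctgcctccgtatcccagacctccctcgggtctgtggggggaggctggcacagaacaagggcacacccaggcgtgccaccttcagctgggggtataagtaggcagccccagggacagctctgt
ITGB5: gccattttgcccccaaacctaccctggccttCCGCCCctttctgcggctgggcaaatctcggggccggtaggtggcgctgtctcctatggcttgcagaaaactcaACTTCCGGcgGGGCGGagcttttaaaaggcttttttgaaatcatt
The windows hold 1 CpG (KRT8), 0 CpG (KRT10), 5 CpG (KRT9) and 8 CpG (ITGB5).

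Set against DMSO, MS8815 shows how these families stand once the degrader is given. In that comparison, 54 of 96 members were called higher and 8 lower by limma at an adjusted p under 0.05, where 24.5% of all 18744 genes were called higher and 22.4% lower. Of the 54, 7 lack a row in another table, and such a member can owe its row to being high with MS8815. The 75 members found in every table gave 47 calls higher and 8 lower, and 20 were not called. The family counts below are over all 96 and include those 7 (CLDN2, CLDN3, CLDN11, COL26A1, ITGA9, ITGBL1 and KRT15). The median log2 fold change was 2.82 over the 96 members and 2.98 over the 75, against 0.00 for all genes. The rises came from 6 families. Called higher were 8 of 10 keratins, 5 of 7 cadherins, 7 of 12 claudins and 17 of 29 collagens. So were 7 of 11 laminins and 9 of 15 other integrins. Of the 7 leukocyte integrins 4 fell and none was called higher in this fit. The counts depend on scaling: quantile normalisation gave 46 higher and 12 lower, and scaling the libraries to B-cell genes gave 72 higher and 1 lower. That scaling moves the median of all genes to 0.88, and quantile normalisation to -0.20, so the calls below are relative to the deposited scaling. Partner genes that fell by less than 0.88, such as JUP, LMNB1, PPIB and ICAM2, would be positive after that shift. Without DMSO replicate 2 the counts were 35 higher and 4 lower, and without DMSO replicate 1 they were 37 and 4. Calls lost both without DMSO replicate 1 and without DMSO replicate 2 included CDH19, CDH24, CLDN3, CLDN11, COL7A1, COL9A2, KRT15, KRT9, ITGAV, ITGA9, ITGBL1, ITGB1BP1 and ITGB3BP, while CLDN2 and CLDN12 were lost without DMSO replicate 2 and KRT86 without DMSO replicate 1.

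**Figure D1:**
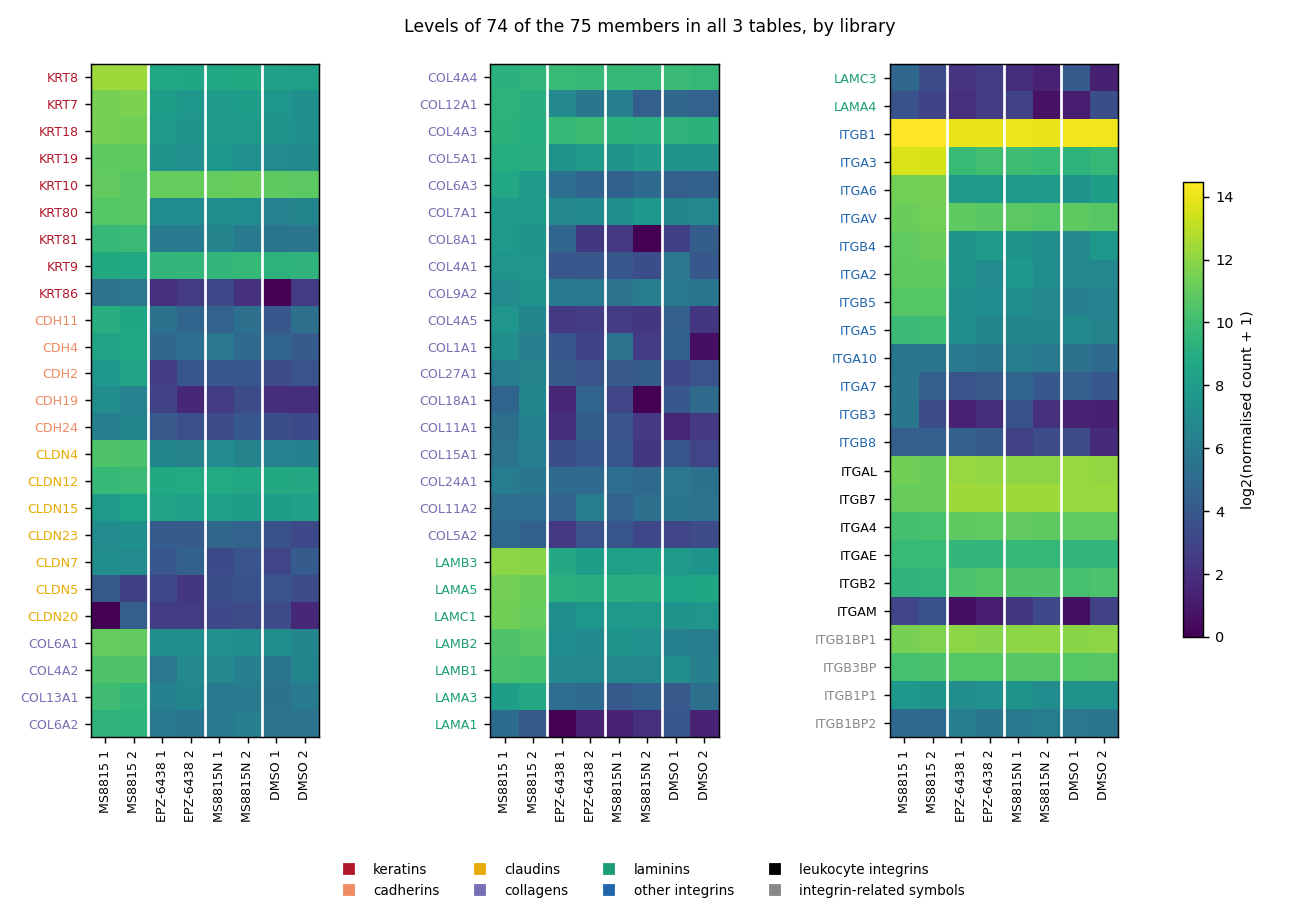
Heat map of log2(normalised count + 1) for 74 of the 75 members in all 3 tables (rows, label colour by family) in the 8 libraries (columns, white lines between groups). The 2 MS8815 columns are brighter for most keratins, laminins and other integrins, and darker for ITGAL, ITGB7, ITGA4 and ITGB2, while the 6 other columns look alike.

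Keratins of simple epithelia rose by nearly the same factor as one another. KRT8, the type II chain of simple epithelium (chromosome 12, 52897187 to 52949954, GENCODE 29 on GRCh38), had normalised counts of 5183 and 5139 with MS8815, 403.5 and 361.6 with EPZ-6438, 400 and 439.3 with MS8815N, and 315.6 and 303 with DMSO. Here and below, values across all 8 libraries are on the scale of the MS8815N table, and fold changes come from each compound's own table on the log2(normalised count + 1) scale. The MS8815 libraries lay far above the other 6, and the DMSO libraries were the lowest. The log2 fold change against DMSO was 4.05 ± 0.08 (SE, limma, adjusted p = 4.3e-06). Its partner KRT18, which overlaps the upstream end of the annotated span of KRT8 on the opposite strand (chromosome 12, 52948871 to 52952901), had 2851 and 2589 with MS8815, 232.9 and 181.4 with EPZ-6438, 246.9 and 217.9 with MS8815N, and 168.7 and 152.6 with DMSO (4.07 ± 0.12). KRT7, a keratin of glandular and ductal epithelium, had 2912 and 3128 with MS8815 and 193.4 and 150.1 with DMSO (4.13 ± 0.15). KRT19 (3.96 ± 0.12), also of simple epithelium, and KRT80 (4.19 ± 0.15) rose by nearly the same factor. So did the hair keratin KRT81 (4.11 ± 0.18), and KRT86 (3.96 ± 0.82) and the basal-cell keratin KRT15 (3.77 ± 0.65) from DMSO levels of 0 to 3.24 normalised counts in the MS8815 table. KRT81 and KRT86 are close in sequence and overlap on opposite strands, so their separate values are uncertain. Reads in the stretch that KRT8 and KRT18 share likewise cannot be assigned without strand, and the labels state no strand setting.

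The other 2 keratins did not follow. KRT10, the suprabasal keratin of epidermis, had 2073 and 1692 with MS8815, 2137 and 2138 with EPZ-6438, 2098 and 2195 with MS8815N, and 1905 and 1840 with DMSO, and was not called (adjusted p = 0.979). KRT9, the keratin of palm and sole epidermis, had 438.9 and 392.6 with MS8815 and 653.9 and 685.7 with DMSO, with no overlap (-0.69 ± 0.12, adjusted p = 0.00641). It had 738.8 and 761.3 with EPZ-6438, and 762.8 and 782.8 with MS8815N. Under scaling to B-cell genes KRT9 was at 0.22 and no longer called. KRT9 lies 37.5 kb from KRT19 on chromosome 17, and KRT15 lies 1.09 kb from KRT19 on its other side, so on the deposited scaling neighbours in 1 cluster moved in opposite directions. The keratinocyte genes KRT5, KRT14 and KRT17 had no row.

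The 7 keratins that rose and are in all tables summed to 15320 and 15490 normalised counts with MS8815, 1261 and 1106 with EPZ-6438, 1334 and 1294 with MS8815N, and 935.3 and 874.6 with DMSO. Their mix hardly changed. Within the sum of KRT7, KRT8, KRT18, KRT19 and KRT80, KRT8 took 35.9% and 35.4% in the MS8815 libraries and 35.6% and 37% in the DMSO libraries, and 32.3% to 37% over all 8. KRT7 took 18.3% to 22.5%, KRT18 17.5% to 19.9%, KRT19 13.1% to 15.4% and KRT80 9.56% to 12.6% over all 8 libraries. The KRT8 to KRT18 ratio was 1.82 and 1.98 with MS8815 and 1.87 and 1.99 with DMSO. The epithelial marker EPCAM had 145.1 and 73.08 with MS8815 and 8.75 to 14.3 in the other 6 libraries.

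**Figure D2:**
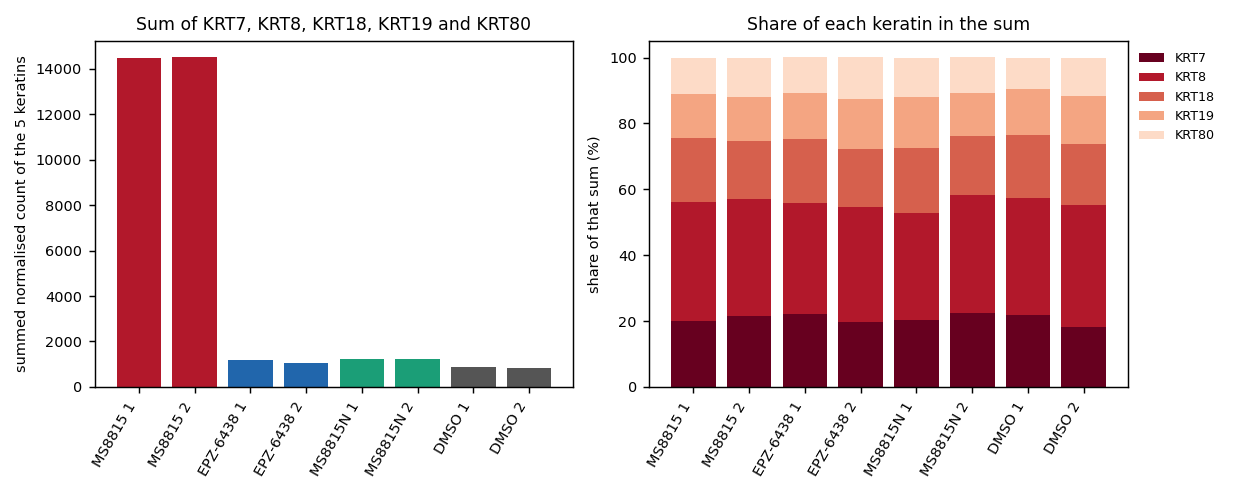
Left, summed normalised count of KRT7, KRT8, KRT18, KRT19 and KRT80 in each library (bars start at 0); right, the share of each keratin in that sum, in percent. The sum is far higher in the 2 MS8815 libraries, while KRT8 stays at 32.3% to 37% of it in all 8.

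Partners of the keratin filament moved with it. Of 12 tested genes of desmosomes and hemidesmosomes (11 with a row in every table), 9 rose and 2 fell with MS8815 (median 3.82). Those that rose included DSP, which ties keratin to the desmosome (3.81 ± 0.17), the desmosomal cadherin DSG2 (3.84 ± 0.15), the plakophilin PKP2 (4.07 ± 0.26) and the hemidesmosome linker DST (3.96 ± 0.27). JUP, a plakoglobin also used outside desmosomes, fell (-0.48 ± 0.07). Of 12 other intermediate filament genes and partners (10 with a row in every table) 7 rose and 3 fell (median 2.82). VIM, the filament of mesenchymal and blood cells, had 39870 and 39790 with MS8815 and 13700 and 13890 with DMSO (1.53 ± 0.03), LMNA rose by 3.67 ± 0.13, and the nuclear lamin LMNB1 fell (-0.46 ± 0.05).

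Among cadherins, 5 of 7 in the MS8815 table rose, and CDH1 and CDH3 were the other 2. CDH2, N-cadherin, had 212.4 and 354.7 with MS8815, 5.18 and 13.5 with EPZ-6438, 14.1 and 13.8 with MS8815N, and 9.75 and 12.3 with DMSO (4.44 ± 0.40, adjusted p = 0.00111). CDH11, the cadherin of mesenchymal cells, had 551.6 and 377.4 with MS8815 and 14.4 and 40.2 with DMSO (4.15 ± 0.50). CDH4, R-cadherin, had 346.1 and 412.6 with MS8815 and 24.7 and 17.1 with DMSO (4.10 ± 0.30). CDH19 (4.57 ± 0.53) and CDH24 (2.98 ± 0.40) also rose. CDH1, E-cadherin and the defining cadherin of epithelium, stood at 1.70 and 4.88 with MS8815 and 6.23 and 1.09 with DMSO. It was not called (0.04 ± 0.92, limma adjusted p = 0.991). These values are on the scale of the MS8815 table and are low. There 1 read was worth 1.65 and 1.42 in the MS8815 libraries and 0.659 and 0.649 in the DMSO libraries. CDH3, P-cadherin, was at 4.85 and 8.06 with MS8815 and 1.89 and 1.96 with DMSO and was not called. Of 9 adherens junction partners 6 rose (median 0.53), among them the nectins NECTIN2 (3.70 ± 0.16) and NECTIN3 (4.11 ± 0.26) and CTNNA1, alpha-catenin (1.67 ± 0.10). CTNNB1, beta-catenin, was at -0.02 ± 0.15 and was not called.

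Of 12 claudins 7 rose and none fell. CLDN4, a barrier-forming claudin of many epithelia, had 1404 and 1295 with MS8815, 97.5 and 88.1 with EPZ-6438, 127 and 88.1 with MS8815N, and 85.1 and 81 with DMSO (3.996 ± 0.14, adjusted p = 2.52e-05). CLDN7 (3.41 ± 0.47) and CLDN3 (3.25 ± 0.64), which occur with CLDN4 in many epithelia, rose as well. So did CLDN23 (3.64 ± 0.39), the pore-forming CLDN2 (4.23 ± 0.56) and CLDN11, the claudin of myelin and testis (3.21 ± 0.72), the last 2 from DMSO levels of 0.661 to 1.34 normalised counts in the MS8815 table. CLDN12 rose less, with 833.5 and 938.2 in MS8815 libraries and 437.5 and 430.1 in DMSO libraries (1.02 ± 0.12). CLDN15, with 235.3 and 338.4 with MS8815 and 266.1 and 304.3 with DMSO, overlapped between the groups and was not called. CLDN5, the claudin of endothelium, was at 16.1 and 5.56 with MS8815 and 12.1 and 9.27 with DMSO. Of 16 tight junction partners 8 rose and none fell (median 1.61), among them TJP1, the ZO scaffold (3.97 ± 0.19), OCLN, occludin (3.45 ± 0.53), and PARD3, a polarity scaffold (4.31 ± 0.31).

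All 11 laminin genes in the MS8815 table had a positive log2 fold change and 7 were called. LAMB3, a chain of an epithelial laminin (chromosome 1, 209614870 to 209652466) had 3910 and 3867 with MS8815, 427.6 and 269.6 with EPZ-6438, 296.3 and 315.3 with MS8815N, and 223.8 and 179.3 with DMSO (4.27 ± 0.13, adjusted p = 6.17e-06). LAMA3, an alpha chain found with it, had 279.4 and 428.3 with MS8815 and 15.5 and 38.7 with DMSO (3.71 ± 0.49). LAMB1 (3.55 ± 0.28), LAMB2 (4.32 ± 0.16) and LAMC1 (3.76 ± 0.14), chains of widely made laminins, were also higher. LAMA5, their alpha chain in many basement membranes, rose less, with 2773 and 2382 with MS8815, 588.8 and 561.4 with EPZ-6438, 536.6 and 506.9 with MS8815N, and 341.2 and 365.3 with DMSO (2.86 ± 0.11). LAMA1, LAMA2, LAMA4 and LAMC3 reached at most 33.2 normalised counts in any library and were not called against DMSO. In the direct comparisons by limma, LAMA1 was called higher with MS8815 than with EPZ-6438 (3.95, adjusted p = 0.0101). It was also called higher than with MS8815N (2.90, adjusted p = 0.0384). That last call was lost without a trend, under quantile normalisation and with the replicate block. Of 9 proteins that join laminins in basement membranes 8 rose and none fell (median 3.14), with AGRN, agrin, at 4.21 ± 0.11, and NID1, nidogen, at 3.84 ± 0.28.

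Of 29 collagens 17 were higher and 1 lower, with a median log2 fold change of 2.34. The network-forming COL4A2 of basement membranes had 1431 and 1448 with MS8815, 54.5 and 112.6 with EPZ-6438, 109.1 and 76.3 with MS8815N, and 46.8 and 90.2 with DMSO (4.43 ± 0.31, adjusted p = 3.58e-05). Its obligate partner COL4A1 had 187.3 and 182.3 with MS8815 and 53.2 and 14.6 with DMSO (2.65 ± 0.59), a call lost without DMSO replicate 2, without either MS8815 library and under quantile normalisation. The beaded-filament chain COL6A1 had 2138 and 2000 with MS8815, 137.5 and 147.3 with EPZ-6438, 156.4 and 137.2 with MS8815N, and 143.1 and 99.1 with DMSO (4.10 ± 0.19). Its partners COL6A2 (3.90 ± 0.19) and COL6A3 (3.84 ± 0.34) rose too, as did COL12A1, a fibril-associated collagen (4.52 ± 0.25), the transmembrane COL13A1 (4.06 ± 0.28) and COL8A1 (4.10 ± 0.57). COL1A1, the main chain of fibrillar type I collagen, had 137.9 and 77.2 with MS8815 and 21.3 and 0.487 with DMSO (3.87 ± 1.11, adjusted p = 0.0133). That call was lost when any 1 of the 4 libraries was left out (2.19 to 5.55, adjusted p = 0.0513 to 0.133) and under quantile normalisation (adjusted p = 0.0861). Its partner COL1A2, at 27.2 and 4.82 with MS8815 and 1.80 and 2.21 with DMSO in the MS8815 table, was not called. COL3A1 and COL4A6 had no row.

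Other collagens changed less. COL5A1, a fibril-nucleating chain, rose by 1.57 ± 0.12, COL9A2 by 1.44 ± 0.30 and COL7A1, the anchoring fibril collagen, by 1.30 ± 0.18. COL4A4, a chain best known from the kidney glomerulus, had 614.8 and 692.1 with MS8815, 846.9 and 812.1 with EPZ-6438, 813.3 and 788.3 with MS8815N, and 921.5 and 806 with DMSO (-0.40 ± 0.12, adjusted p = 0.0413). COL4A3, which starts 111 bases from COL4A4 on the opposite strand (chromosome 2), had 629.7 and 494 with MS8815 and 669 and 637.6 with DMSO and was not called (adjusted p = 0.284). The COL4A4 call was lost when any 1 of the 4 libraries was left out and with the replicate block (adjusted p = 0.0521), and under scaling to B-cell genes COL4A4 was higher (0.51). Enzymes and chaperones of collagen synthesis and cross-linking rose in 19 of 24 cases (22 with a row in every table) and fell in 1 (median 1.40). SERPINH1, the collagen chaperone, rose by 4.15 ± 0.13, the lysyl hydroxylase PLOD2 by 3.98 ± 0.30 and the lysyl oxidase LOX by 3.15 ± 0.39, and PPIB, a prolyl isomerase, fell (-0.60 ± 0.04).

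Of 15 integrin chains outside the leukocyte set 9 rose and none fell. ITGA3, a laminin receptor chain (chromosome 17, 50055968 to 50090481), had 12650 and 12240 with MS8815, 873.2 and 1071 with EPZ-6438, 995.8 and 879.4 with MS8815N, and 650.7 and 794.3 with DMSO (4.11 ± 0.10, adjusted p = 3.96e-06). ITGA6 and ITGB4, the laminin receptor of hemidesmosomes, rose together. ITGA6 had 2698 and 2840 with MS8815 and 173.7 and 263.9 with DMSO (3.68 ± 0.20), and ITGB4 had 1955 and 2282 with MS8815 and 109.7 and 211 with DMSO (3.78 ± 0.31). ITGA2, a collagen receptor chain, had 1854 and 1855 against 109.1 and 102.4 with DMSO (4.11 ± 0.12). ITGB5, which pairs with ITGAV to bind vitronectin, had 1625 and 1583 with MS8815 and 78.5 and 85.7 with DMSO (4.26 ± 0.15), and ITGA5, the fibronectin receptor chain, rose by 3.25 ± 0.19. Chains already abundant in DMSO cells rose little. ITGB1, the shared beta chain of the laminin, collagen and fibronectin receptors, had 22630 and 22510 with MS8815, 16520 and 16540 with EPZ-6438, 17830 and 17060 with MS8815N, and 18740 and 18080 with DMSO (0.29 ± 0.03, adjusted p = 0.000723). ITGAV rose by 0.54 ± 0.10. The ITGA3 to ITGB1 ratio was therefore 0.559 and 0.544 with MS8815 and 0.0347 and 0.0439 with DMSO. ITGA1, ITGB3 and ITGB8 were not called. ITGA1 was at 3.79 and 62.0 in the 2 MS8815 libraries on the scale of the MS8815 table. With MS8815 ITGB3 was at 49.69 and 9.848, and ITGB8 at 20.13 and 19.25. Limma over all 8 libraries did call ITGB3 (3.19, adjusted p = 0.0189) and ITGB8 (1.79, adjusted p = 0.0434) higher than with DMSO. Limma on log2(normalised count + 1) also called ITGB3 (3.07, adjusted p = 0.0308). ITGB6 had no row.

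**Figure D3:**
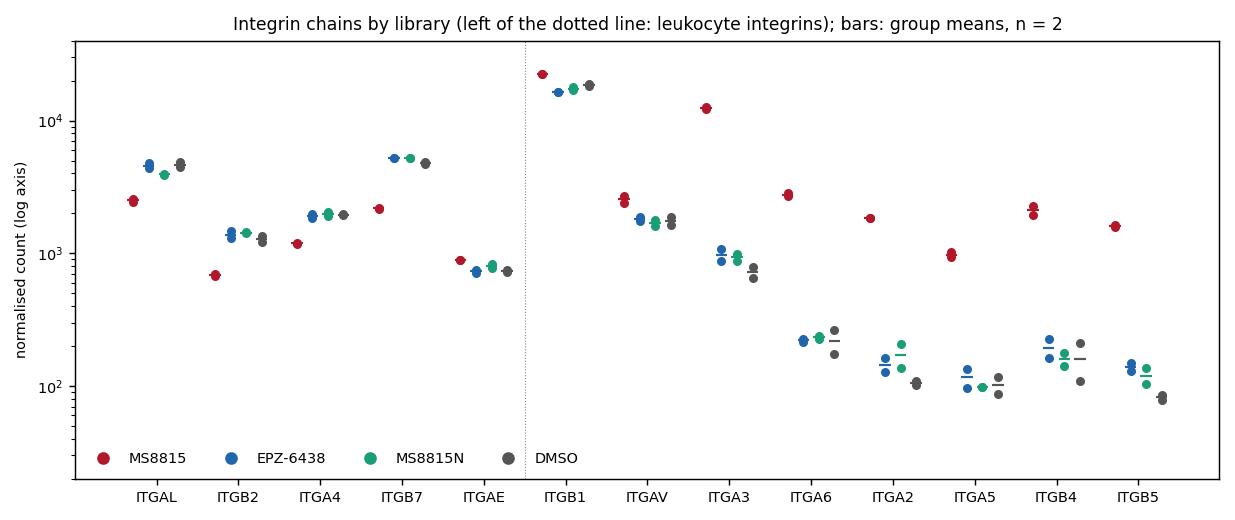
Normalised count (log axis) of 13 integrin chains in each library (points) with the mean of each group (bars, n = 2). The MS8815 points lie below all others for ITGAL, ITGB2, ITGA4 and ITGB7, slightly above for ITGB1 and ITGAV, and far above for ITGA3, ITGA6, ITGA2, ITGA5, ITGB4 and ITGB5.

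Of the leukocyte integrins 4 of 7 fell: ITGAL, ITGB2, ITGB7 and ITGA4. ITGAL, the alpha chain of LFA-1 (chromosome 16, 30472658 to 30523185), had 2587 and 2416 with MS8815, 4755 and 4416 with EPZ-6438, 3888 and 3991 with MS8815N, and 4836 and 4490 with DMSO (-0.90 ± 0.07, adjusted p = 0.00021). Its partner ITGB2 had 677.4 and 700.3 with MS8815, 1304 and 1463 with EPZ-6438, 1430 and 1440 with MS8815N, and 1222 and 1344 with DMSO (-0.89 ± 0.09, adjusted p = 0.000917). ITGB7 had 2201 and 2173 with MS8815, 5252 and 5193 with EPZ-6438, 5269 and 5217 with MS8815N, and 4733 and 4904 with DMSO (-1.14 ± 0.06, adjusted p = 5.84e-05). ITGA4 had 1175 and 1204 with MS8815, 1858 and 1964 with EPZ-6438, 2047 and 1913 with MS8815N, and 1988 and 1931 with DMSO (-0.72 ± 0.07, adjusted p = 0.000738). For all 4 the MS8815 libraries lay below the other 6. ITGAE, the other partner of ITGB7, had 892.5 and 889.8 with MS8815 and 719.6 and 747.6 with DMSO. It was not called (0.28 ± 0.10, limma adjusted p = 0.0594). That depended on the fit, as limma over all 8 libraries called it higher than with DMSO (0.28, adjusted p = 0.0179). Limma also called it with the lower 50% of genes left out (adjusted p = 0.0477) and scaled to B-cell genes (1.19, adjusted p = 0.000375). Its MS8815 libraries lay above the other 6, and it was called higher with MS8815 than with EPZ-6438 (0.29, 95% interval 0.10 to 0.47, limma adjusted p = 0.0172) but not than with MS8815N (0.15, adjusted p = 0.164). The myeloid chains ITGAM and ITGAX stayed under 14 normalised counts in the MS8815 table and were not called, and ITGAD had no row. The ITGAL to ITGB2 ratio was 3.82 and 3.45 with MS8815 and 3.96 and 3.34 with DMSO.

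The fall of these 4 chains was of the size seen in B-cell genes. Their sum was 6640 and 6493 with MS8815, 13170 and 13040 with EPZ-6438, 12630 and 12560 with MS8815N, and 12780 and 12670 with DMSO, while the B-cell identity list had a median log2 fold change of -0.96 and germinal-centre genes one of -0.80 (8 of 9 called lower). Scaled to B-cell genes, ITGB7 was still called lower (-0.23, adjusted p = 0.0145), whereas ITGAL was at 0.00983, ITGB2 at 0.012 and ITGA4 at 0.19, none of them called. Of 25 adaptors that link integrins to actin (24 with a row in every table) 15 rose and 5 fell (median 0.41). That share of falls is near the 22.4% of all genes. ACTN1, an actin cross-linker of focal adhesions (3.99 ± 0.10), the kindlins FERMT1 (3.95 ± 0.39) and FERMT2 (3.63 ± 0.18), PARVA (3.70 ± 0.31) and PXN, paxillin (2.26 ± 0.07), were higher. APBB1IP, which links RAP1 to talin in blood cells (-1.17 ± 0.03), PTK2B, a focal adhesion kinase relative abundant in haematopoietic cells (-1.07 ± 0.07), and RASGRP2 (-0.91 ± 0.19) were lower. FERMT3, the kindlin of blood cells, rose by 1.40 ± 0.05. Of 11 soluble or cell-surface integrin ligands (10 with a row in every table) 6 rose and 1 fell (median 0.81). FN1, fibronectin, was at 3.98 ± 0.19, THBS1 at 4.24 ± 0.13, and the lymphocyte adhesion ligand ICAM2 at -0.58 ± 0.13.

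The 5 genes that share an integrin symbol gave 1 rise and 2 falls. ITGBL1, a secreted protein, was called higher at 6.77 and 18.1 with MS8815 and 1.29 and 0 with DMSO in the MS8815 table. ITGB1BP1, a cytoplasmic partner of ITGB1 (-0.30 ± 0.08), and ITGB3BP, a centromere protein (-0.40 ± 0.07), fell. Both were higher under scaling to B-cell genes (0.60 and 0.51). The pseudogene ITGB1P1 can share reads with ITGB1, so its value is uncertain.

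**Figure D4:**
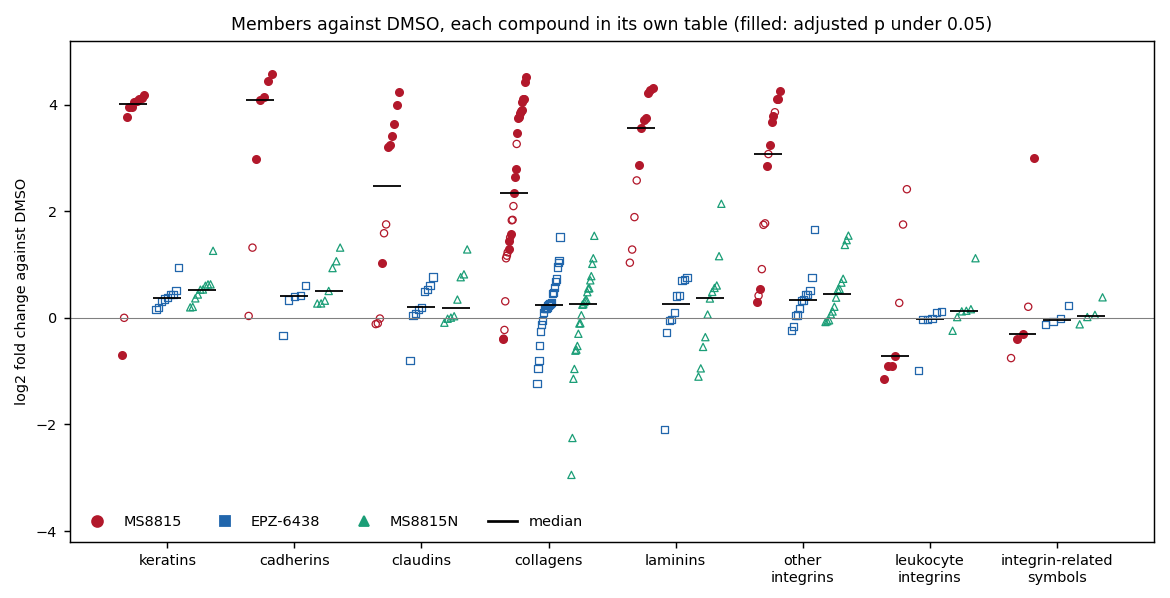
Log2 fold change against DMSO of each member (points) by family, for MS8815 (circles), EPZ-6438 (squares) and MS8815N (triangles), each from its own table, with filled points at an adjusted p under 0.05 and black lines at medians. With MS8815 many members of 6 families sit near 4, the leukocyte integrins lie at or below 0 apart from ITGAM, ITGAX and ITGAE, and no point is filled for EPZ-6438 or MS8815N.

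The median rise among members called higher ran between 3.41 for claudins and 4.15 for cadherins, leaving aside the 1 integrin-related symbol. The range was narrow in keratins (3.77 to 4.19) and wide in other integrins (0.29 to 4.26), collagens (1.30 to 4.52) and claudins (1.02 to 4.23). Among the 54 members called higher the median log2 fold change was 3.81, with quartiles of 3.22 and 4.11. 36 of them exceeded 3.5, 12 lay between 2 and 3.5, and 6 lay below 2. The 6 smallest were CLDN12, COL5A1, COL9A2, COL7A1, ITGAV and ITGB1. Changes between 3.5 and 4.7 were found in 7.59% of all genes of the MS8815 table. By level in DMSO, the share that rose did not follow 1 direction. The same DMSO libraries set the level and enter the fold change, and the share of all genes at each level was not counted. Of the 19 members with a DMSO mean of 5 to under 20, 13 rose and none fell (median 3.41). Of the 30 members with a DMSO mean of 20 to under 200 normalised counts, 24 rose and none fell (median 3.93). Of the 17 members at 200 or more, 6 rose and 8 fell (median -0.23). ITGA3 (4.11) and LAMA5 (2.86) were the 2 of those 6 that rose by more than 2. Among 30 members under 5 normalised counts, 11 rose and 19 were not called (median 2.50). Those that rose include CLDN2, CLDN11, ITGBL1 and KRT15, which lack a row in another table and can owe theirs to MS8815. In the MS8815 libraries 1 read was worth 1.65 and 1.42 normalised counts, and the part of depth in those 19 was not tested. Fold changes on the log2(value + 1) scale understate those of such low members.

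**Figure D5:**
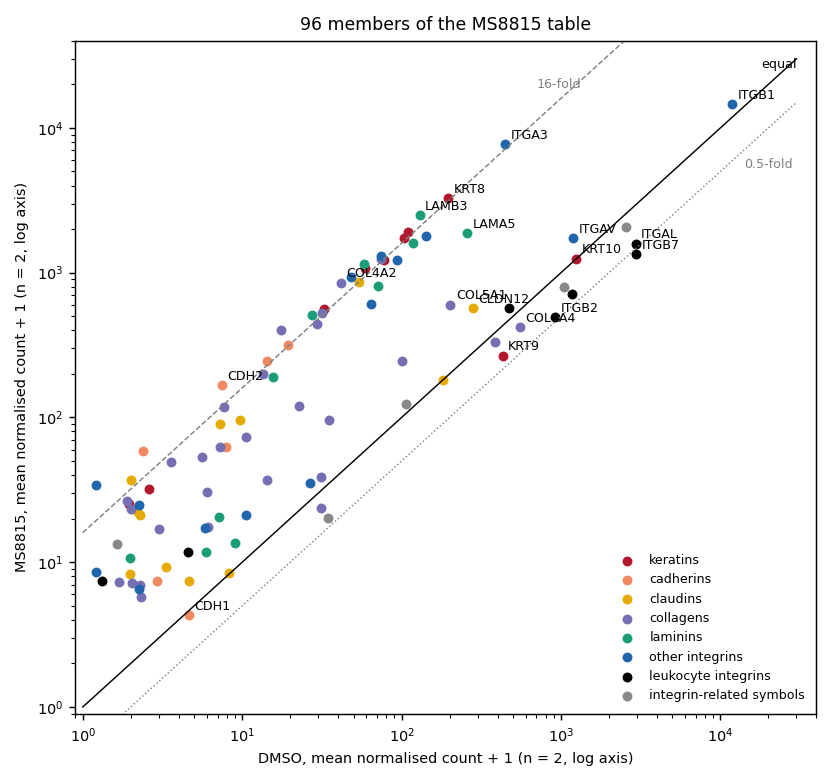
Mean normalised count plus 1 with MS8815 against that with DMSO for the 96 members of the MS8815 table (log axes, n = 2 each, colours by family). Solid, dashed and dotted lines mark equal, 16-fold and 0.5-fold levels; KRT8, ITGA3, LAMB3 and COL4A2 lie along the 16-fold line, while ITGAL, ITGB7 and ITGB2 lie near 0.5-fold.

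EPZ-6438 and MS8815N, set against DMSO, ask whether blocking the enzyme or an analog without degrader activity moves the same families. Limma called none of the 81 members with EPZ-6438, against a background over all genes of 0.0164% higher and 0.0164% lower. It called none of the 84 members with MS8815N, where 0.288% of genes were called higher and 0.245% lower. Before adjustment, 15 members had a p under 0.05 with EPZ-6438, where 3076 of all 18320 genes did. With MS8815N 22 members did, where 2894 of all 18398 genes did. Limma on log2(normalised count + 1) also called 0 members in both. The median log2 fold changes of the members were 0.24 with EPZ-6438 and 0.33 with MS8815N, against 0.006 and 0.004 for all genes. Small positive values were common among keratins, at 9 of 9 with EPZ-6438 (median 0.38) and 10 of 10 with MS8815N (median 0.53). The share of positive values among all genes, or among genes of like level, was not counted. For KRT8 the log2 fold change was 0.30 (adjusted p = 0.26) when EPZ-6438 was given and 0.44 (adjusted p = 0.134) for MS8815N. LAMA5 came closest to a call with EPZ-6438 (0.70, adjusted p = 0.0697), and LAMB2 with MS8815N (1.16, adjusted p = 0.0612). Both comparisons use the same DMSO libraries, so their values are not independent of each other. In these compounds' tables the B-cell identity list had medians of 0.01 and -0.07, and no epithelial or fibroblast marker was called. Of the partner lists, none had a call with EPZ-6438, and 4 genes were called higher with MS8815N: the adaptors FERMT3 (0.38 ± 0.04, adjusted p = 0.0248) and FLNA (0.19 ± 0.03, adjusted p = 0.0426), the ligand THBS1 (0.85 ± 0.11, adjusted p = 0.0329) and VIM (0.20 ± 0.03, adjusted p = 0.0329).

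Compounds were compared directly at the same dose and time, in 3 pairs, by a fit over all 8 libraries and the 17467 genes in all tables. The labels do not give the structural difference between MS8815 and its analog MS8815N. With MS8815, 47 of 75 members were higher and 9 lower than with MS8815N (24.2% and 26.3% of all genes). KRT8 differed by 3.62 (95% interval 3.40 to 3.83, limma adjusted p = 5.74e-08), ITGA3 by 3.73 (3.45 to 4.02), LAMB3 by 3.66 (3.19 to 4.14) and ITGB7 by -1.26 (-1.35 to -1.17). Against EPZ-6438, 50 members were higher and 10 lower with MS8815 (24.2% and 26.3% of all genes). There KRT8 differed by 3.75 (3.54 to 3.97), ITGA3 by 3.68 (3.40 to 3.97) and ITGB7 by -1.26 (-1.35 to -1.17). For MS8815N against EPZ-6438, 6 of 75 members had an unadjusted p below the 0.05 level, where 1070 of 17467 genes did. These 2 compounds were not told apart for any of the 75 members (0.166% of genes higher and 0.00573% lower). The intervals bound that difference at -0.08 to 0.35 for KRT8, -0.33 to 0.24 for ITGA3, -0.62 to 0.32 for LAMB3 and -0.08 to 0.10 for ITGB7. For LAMB2 the difference was 0.43 (0.06 to 0.80, adjusted p = 0.713).

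Both MS8815 libraries lay above all 6 others for 51 of 75 members and below all 6 for 9, where 28.8% and 31.0% of all genes did so. The 51 comprised 7 of 9 keratins, 5 of 5 cadherins, 4 of 7 claudins, 17 of 22 collagens, 8 of 10 laminins, 8 of 12 other integrins, ITGAE and ITGB1P1. Relative to the MS8815 mean, the 33 members of all tables that rose by more than 3.5 stood at a median of 7.91% with EPZ-6438 (quartiles 7.34% and 8.99%), 8.22% with MS8815N (7.31% and 9.24%) and 5.81% with DMSO (5.19% and 6.35%). Over single members these percentages ran between 1.06% and 23.4%. The 33 were chosen by their rise over DMSO, which by itself holds their DMSO percentages low. The lower median with DMSO is therefore no separate result. Whether RNA or index reads from another cell line or library contribute to either the high or the low values was not tested. KRT8 was at 7.41% with EPZ-6438, 8.13% with MS8815N and 5.99% with DMSO, and KRT7 was at 7.71% with EPZ-6438, 8.75% with MS8815N and 5.69% with DMSO.

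Levels per kilobase of merged exon place the members on 1 scale. Merged exons take in every annotated transcript, so the order depends on the annotation as well as on the reads. In DMSO libraries ITGB1 led with 3118 and 3008 normalised counts per kilobase, followed by ITGB7 (1056 and 1094), KRT10 (888.5 and 858.2) and ITGAL (747.2 and 693.8). Neighbours ITGB7 and KRT10 did not overlap between libraries. In MS8815 libraries ITGB1 (3765 and 3745) was followed by ITGA3 (1291 and 1249), KRT10 (966.9 and 789.2), KRT18 (886 and 804.5), LAMB3 (834 and 824.9) and KRT19 (817.6 and 810.8). The library values of KRT10 span those of KRT18, and those of KRT18 span those of LAMB3 and KRT19, so these neighbours in the order were not separated. ITGB7 stood 9th of 74 there and 2nd in DMSO, and ITGA3 2nd with MS8815 and 14th in DMSO. KRT8 ranked 7th with MS8815 and 19th in DMSO, below KRT18 (4th and 18th), although its normalised counts were higher. Its merged exons span 6.88 kb, against 3.22 kb for KRT18.

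On the genome, several members are neighbours. The members with a row in the type II keratin cluster on chromosome 12 are KRT80, KRT7, KRT86, KRT81 and KRT8. The type I gene KRT18 lies at its end. All 6 rose by 3.96 to 4.19 log2 units, though the separate values of KRT81 and KRT86 are uncertain. None of the 21 coding genes between KRT81 and KRT8 is a member with a row, so these values do not cover the whole cluster. ITGB7, which fell, lies 238 kb beyond KRT18. COL4A1 with COL4A2, COL6A1 with COL6A2, and CLDN3 with CLDN4 are also adjacent pairs, and both genes of each rose. COL4A1 and COL4A2 overlap at their starts on opposite strands, which limits their separate values in the same way as for KRT8 and KRT18. ITGA1 and ITGA2 are 30.1 kb apart, with log2 fold changes of 3.86 and 4.11. ITGA2 was called higher, while ITGA1 was not (limma adjusted p = 0.0958) except with the replicate block (0.0358) or with 1 MS8815 library left out. The missing call is thus no difference between these neighbours.

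RefSeq promoters (250 bases before to 50 after the first start listed for each gene, GRCh38.p14) were matched for 65 of 100 members. The 37 matched members called higher with MS8815 had a median of 17 CpG, against 26 for the 11375 genes of the MS8815 table with a promoter and 14 for all 27305 promoters. A GC box was present in 26 of 37 (70.3%), against 68.3% of the promoters of the table's genes and 44.6% of all. An AP-1 site (TGANTCA) was present in 10.8% of the 37, 4.89% of the table's genes and 7.76% of all promoters. TATAAA was present in 10.8%, 5.83% and 12.0%, and an ETS core in 5.41%, 8.15% and 4.44%. The grainyhead core AACCGGTT was in none of the members' windows and in 0.117% of all promoters. The motifs overlap in no shown window, and a match is a run of letters, not a site shown to be bound.

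Of the 25 members outside the common set, 14 were in 1 table and 11 in 2. Those in the MS8815 table alone numbered 10, among them CDH1, CDH3, CLDN1, CLDN2, COL1A2, COL16A1 and ITGAX. COL17A1, the hemidesmosomal collagen, was in the EPZ-6438 table alone at 7.66 and 0 with EPZ-6438 and 5.83 and 0 with DMSO. CDH15, CDH22 and COL28A1 were in the MS8815N table alone, all at 13.3 normalised counts or less. A member that has a row only because it was high in 1 group had to differ there. EZH2 itself, the protein that MS8815 degrades, had mRNA values of 3883 and 3673 with MS8815, 4587 and 4637 with EPZ-6438, 4409 and 4509 with MS8815N, and 4430 and 4674 with DMSO. Since a degrader acts on the protein, this checks no label.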

How the data were processed

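Per the submitters' processing notes, reads were processed with STAR 2.4.2 and Salmon on GRCh38; their order and the annotation are not given in the sources used here. The authors deposited 3 tables, each with the 2 DMSO libraries and 2 libraries of a compound, as DESeq2 variance-stabilised values on a log2-type scale, per the file headers and table names. All columns were matched to samples by name (0 were left without one). Each table's transform was inverted in closed form to normalised counts. The DMSO libraries then differed between tables by 1 constant per gene and 1 per library (largest deviation 7.04e-11 log2 over 17219 genes), which put all tables on the scale of the MS8815N table; 10 genes per joined table took the median constant. Depth was estimated from the steps between low values, of which 45.3% to 65.6% were whole multiples within 0.02 (4% by chance); values were not whole for nearly all genes, so no count test was run. Replicates differed by more than counting noise (median chi-square per gene 1.42 to 2.08, against 0.455).

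Compounds were tested against DMSO within their own table with a mean-variance trend on the deposited values in limma 3.58.1 under R 4.3.3 (2 residual degrees of freedom), two-sided, with Benjamini-Hochberg adjustment over all genes and calls made below an adjusted p of 0.05. Printed log2 fold changes with SEs come from a limma fit to log2(normalised count + 1). Pairs of compounds were tested on that scale over all 8 libraries (4 residual degrees of freedom, 95% intervals, adjusted over genes within each pair). The fits were tested on simulated data. No filter on low values was added. Positions and exon lengths are from GENCODE 29, promoters from RefSeq.

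The members, marker and partner lists and naming rule were chosen with earlier results of these data known. Named are fixed genes of each family, the leukocyte integrins, and up to 4 called members per family and direction with the largest change; the 6 smallest rises, members outside the common set and partner genes were named after their values were seen. Alternatives were another tested value, no trend, the lower 50% of genes left out, quantile and B-cell scaling, other pseudocounts, the joined fit, a replicate block and each library left out. The values of 1 member are counted in the totals but not reported here.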

Additional observations from a re-analysis of the deposited data

How the results depend on the processing

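Directions of the named called members held under every alternative except scaling to B-cell genes, which sets the MS8815 libraries apart by -0.92 and -0.90 log2. Under it, values became positive for COL4A4 (0.51), ITGA4 (0.19), ITGAL (0.00983), ITGB1BP1 (0.60), ITGB2 (0.012), ITGB3BP (0.51) and KRT9 (0.22) in MS8815 against DMSO. Against MS8815N they did so for COL4A4 (0.53), ITGA4 (0.096), ITGAL (0.17), ITGB1BP1 (0.47) and ITGB3BP (0.42). Against EPZ-6438 they did so for COL4A3 (0.23), COL4A4 (0.56), ITGA4 (0.23), ITGAL (0.035), ITGB1BP1 (0.62), ITGB3BP (0.57) and KRT9 (0.056). Members called lower then numbered 1 against DMSO, 2 against MS8815N and 1 against EPZ-6438, and the leukocyte integrin median was 0.19. The cause was not tested.

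With the lower 50% of genes by level left out, 27 members of 38 tested were called higher against DMSO, and all 28 calls lost were of members no longer tested. The counts were then 11 against MS8815N and 12 against EPZ-6438. Leaving out 1 library at a time gave 35 to 56 higher and 4 to 7 lower against DMSO, the low ends without a DMSO library. For EPZ-6438 against DMSO, 1 member was higher (LAMA5) and 1 lower (ITGB1) with the lower 50% left out and without a trend. For MS8815N against DMSO, 1 was higher and 1 lower (LAMA5, ITGAL) with the lower 50% left out, and 1 was higher (LAMB2) in the joined fit, without a trend, scaled to B-cell genes and with the replicate block. With the replicate block, MS8815 against DMSO gave 58 higher and 7 lower. Same-numbered libraries did not deviate together (correlations -0.039 to 0.021 across 8733 genes). Such correlations cannot show whether these libraries shared a culture or a preparation.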
